A study of Mus musculus with 4 samples.

Results

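The 40 genes described here encode the liver's enzymes of amino acid catabolism and the urea cycle, together with the ornithine carrier Slc25a15 and the kinase Bckdk. They are picked by gene name, from a list drawn up with earlier results of these data known. The probe that stands for a gene is chosen by its signal. The array carried 54 probes for them among 41174 probes, and 39 of the 40 genes had a value on all 4 arrays, out of 11360 genes so measured. Liver RNA came from male C57BL/6J mice that were 8 weeks old at purchase, became obese on a high-fat diet for 14 weeks, weighed at least 40 g, and stayed on that diet throughout. Treated mice received 1 nmol of porcine galanin-like peptide (GALP), a hypothalamic neuropeptide, in saline with 5% α-cyclodextrin as 2 µL intranasally once a day for 11 days. Control mice received saline. RNA of 4 GALP mice with greater weight loss, of 4 GALP mice with less weight loss and of 8 control mice was pooled. A two-colour Agilent array compared each GALP pool with the control pool, and another array did so with the dyes exchanged. The pools are the samples (n = 2), and no value of a single mouse was analysed here. Both ratios share the control pool, and whatever sets that pool apart from other saline mice is part of each of them.

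The liver takes most amino acids apart. Aminotransferases and glutamate dehydrogenase collect their nitrogen as glutamate, aspartate and ammonia, and the urea cycle in periportal hepatocytes turns it into urea. Pericentral hepatocytes recapture what ammonia is left as glutamine. The carbon skeletons enter gluconeogenesis or ketogenesis, and many of these enzymes are known to respond to fasting, glucagon and glucocorticoids.

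Every value below is a log2 ratio of GALP over control, so that 0 means equal signal. In each list of 4 values the first pair is the greater weight loss pool (GALP in Cy5, then in Cy3) and the second pair is the less weight loss pool in the same order. Means are over the pools, ± SD of the 2 pools. Levels are not set against each other between probes. In bulk liver, fewer cells of a type and less RNA per cell cannot be told apart.

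The probes that the main values rest on are shown first. Each line gives the first 30 of the 60 bases of a probe, 5′ to 3′, from the array files. Ahcy and Gpt2 had the highest mean ratios and Tat and Oat the lowest, and Glul is shown because its probes differed from each other. Probe numbers run from the highest mean signal.

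Ahcy, probe 1: gcattgagcagacgctgcacttcaaggacg
Ahcy, probe 2: aagtgacagactgaaaggggctggaaaaca
Gpt2: gaaaaggtaccatgtgtgctcgctaggcat
Tat: gaagtcaccttggttcctgcctcacttcag
Oat, probe 1: cctgtctcctgaaaggcatatatttcagtt
Oat, probe 2: gaataacctctgatttctccaccctaaatt
Glul, probe 1: gtaactgccaggcagcgcttataaatcaac
Glul, probe 2: ttccgcaaagaccccaacaagctggtgcta
Glul, probe 3: gctggtttcccctttagaaataacagctct

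In the mm9 positions of the files, the Gpt2 probe lies at chr8:88050856-88050915 and the Tat probe at chr8:112523207-112523266. Probe 1 of Ahcy lies at chr2:154891321-154891380, whereas the files place its probe 2 on another chromosome, at chr16:46153220-46153285, so that probe 2 cannot be taken as a second reading of the same locus. Probe 1 of Oat lies at chr7:139749726-139749785. Probe 2 of Oat spans chr7:139761823-139767252, 5430 bases for 60 bases of probe, as a probe across a splice junction does, and it is assigned to an Ensembl transcript. The Glul probes lie at chr1:155756750-155756809, chr1:155751765-155751824 and chr1:155755785-155755844. Exons and UTRs of that build were not analysed here.

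No gene of these pathways met the rule of the methods, taken in a strict reading. By it both pools must lie above 1.5-fold or below 0.75-fold and all 4 arrays must share the direction, each with a Feature Extraction p-value under 0.01. The paper states these limits and changes common to both groups, but not that each array must pass. The strict reading called fewer genes higher than the paper reports. Of the 11360 measured genes, 0.176% met it as higher and 0.343% as lower. Without the p-value, 0 of the 39 reached the fold limits in both pools, beside 0.405% of all genes higher and 1.45% lower. All 39 mean ratios lay within 0.5 of 0, as did 96.2% of all genes. The array itself sets a limit here. On each array the smallest ratio that carried p under 0.01 was 0.54 in size, and 4 of the 156 single-array values of these genes did so. They belonged to Asl, Ahcy, Oat and Tat (10.3% of the genes, beside 12.5% of all genes with such a value on at least 1 array). Changes smaller than this were not detectable by that p-value on a single array.

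limma, fitted to the 2 pool ratios over 41037 probes with Benjamini-Hochberg adjustment, passed 0 of the 39 genes and 0% of all genes at a threshold of 0.05. The smallest adjusted p of the 39 was 0.374. At an unadjusted p under 0.05 it held 6 genes above 0 (15.4%, beside 8.69% of all genes) and 4 below 0 (10.3%, beside 11.4%). Those above were Gpt, Gpt2, Ido2, Uroc1, Mat1a and Ahcy, and those below were Glud1, Kynu, Bckdk and Bhmt. With 2 pools the 95% confidence interval of a mean ratio had a median half-width of 0.198, from 0.0494 to 1.39, and a p that misses the threshold does not show that a gene was equal in both conditions. The intervals leave out the spread of the control.

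The median of the 39 mean ratios was 0.08 (quartiles -0.06 and 0.19), and that of all measured genes was -0.01 (quartiles -0.11 and 0.08). The median was 0.14 in the greater weight loss pool and 0.01 in the less weight loss pool, beside -0.01 in both pools for all genes. On all 4 arrays 14 of the 39 genes were above 0 (35.9%, beside 12.8% of all genes) and 6 were below 0 (15.4%, beside 14.6%). With normexp and loess in place of the deposited ratios, those counts were 11 and 4, and after centring each array on its median they were 12 and 4. All arrays share the control pool, so this is a description of 4 hybridisations and not of 4 independent comparisons.

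**Figure D1:**
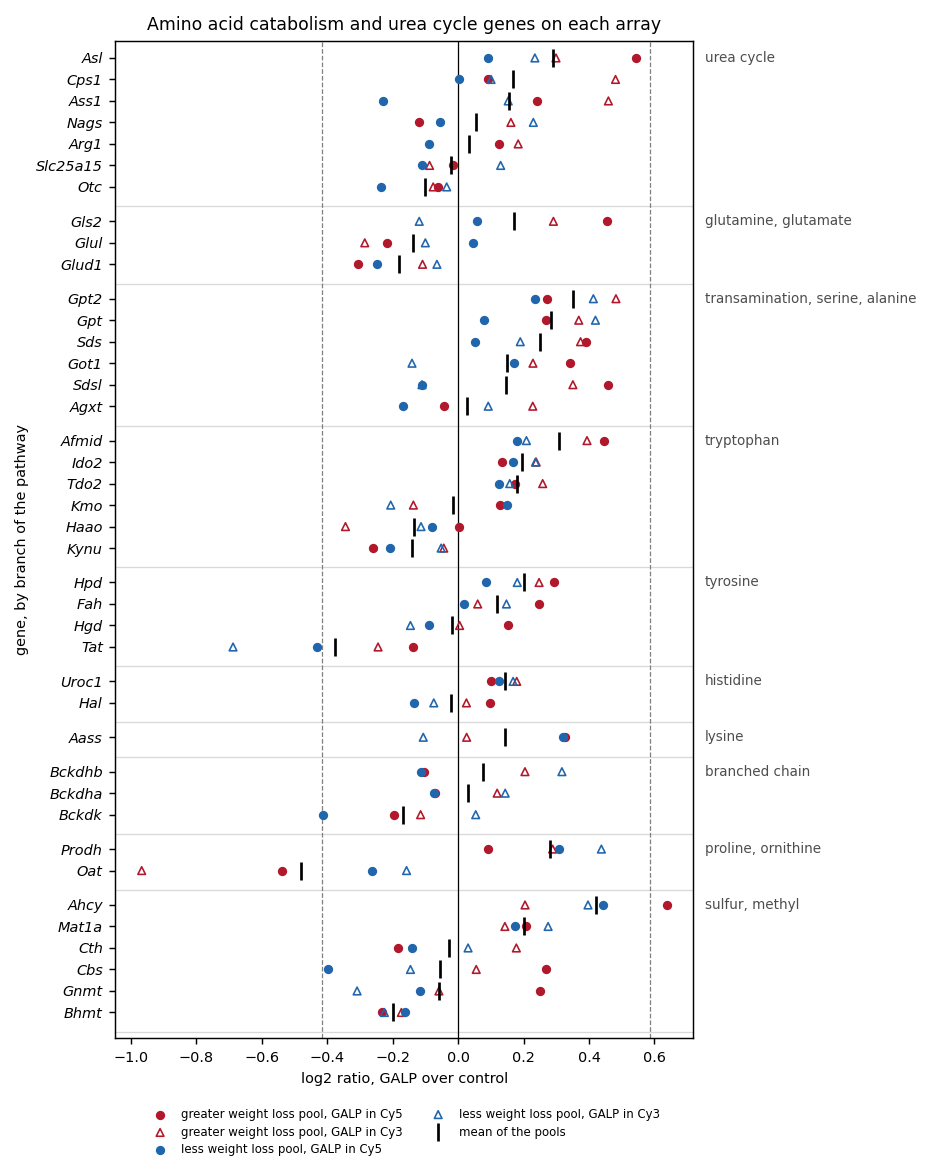
Log2 ratio of GALP over control for the 40 genes (y axis, by branch) on each of the 4 arrays (x axis). Red marks are the greater weight loss pool, blue marks the less weight loss pool, filled circles GALP in Cy5, open triangles GALP in Cy3, and black bars the mean of the pools. Arg1 has 3 values. Dashed lines are the fold limits of 0.75 and 1.5, and no gene has both pools past a limit on the same side.

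The urea cycle showed no common direction. Its measured genes had a median of 0.10 (n = 6), with Asl and Cps1 above 0 and Otc below 0 on every array. Cps1, carbamoyl phosphate synthetase, feeds ammonia into the cycle. Its values were 0.09, 0.48, 0.0027 and 0.10 (mean 0.17 ± 0.17), so that the array with the highest value exceeded the others by far more than they differed among themselves. Nags makes the activator of Cps1, N-acetylglutamate, and stood at -0.12, 0.16, -0.06 and 0.23. It was below 0 with GALP in Cy5 and above 0 with GALP in Cy3 in both pools, so the sign of this probe followed the dye, and its mean of 0.05 ± 0.05 became -0.02 under normexp and loess. The second probe of Nags gave 0.16, 0.19, -0.19 and 0.13, and its sign did not follow the dye.

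Otc, ornithine transcarbamylase, joins carbamoyl phosphate to ornithine in the mitochondrion. It stood at -0.06, -0.08, -0.24 and -0.03 (mean -0.10 ± 0.05, limma adjusted p = 0.546). Its second probe gave 0.12, -0.18, 0.12 and -0.23, and the dimmest -0.15, -0.14, 0.12 and -0.62, so that the 4 negative values belonged to the first probe and not to the others.

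Ass1, argininosuccinate synthase, and Asl, argininosuccinate lyase, act in turn in the cytosol. Ass1 stood at 0.24, 0.46, -0.23 and 0.15 (mean 0.16 ± 0.27), and its second probe gave 0.33, 0.41, -0.11 and 0.09. Both probes were above 0 on both arrays of the greater weight loss pool and on either side of 0 in the other. Asl stood at 0.54, 0.30, 0.09 and 0.23 (mean 0.29 ± 0.18, 1.22-fold, limma adjusted p = 0.622) and was the highest of the cycle. Its p-value was 0.00981 on the first array and between 0.146 and 0.66 on the rest.

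Arg1, arginase, releases urea from arginine. Its only probe carried an outlier mark on the array of the less weight loss pool with GALP in Cy3. The other arrays gave 0.13, 0.18 and -0.09, and the marked spot read 0.16. It entered no test. Slc25a15, which carries ornithine into the mitochondrion, stood at -0.01, -0.09, -0.11 and 0.13, around 0, and its mean of -0.02 ± 0.04 was 0.01 under normexp and loess.

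The enzymes that feed the cycle through alanine and serine were the branch with the highest median (0.20, n = 6), and all 6 had a mean above 0. Gpt and Gpt2, the cytosolic and mitochondrial alanine aminotransferases, were above 0 on every array. Gpt2 stood at 0.27, 0.48, 0.23 and 0.41 (mean 0.35 ± 0.04, 1.27-fold, 95% interval 0.21 to 0.49, limma adjusted p = 0.374). Gpt stood at 0.27, 0.37, 0.08 and 0.42 (mean 0.28 ± 0.05, 1.22-fold, limma adjusted p = 0.386). In both genes the ratio was higher with GALP in Cy3 than in Cy5 within each pool, and the pools differed by only 0.05 and 0.07.

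Sds and Sdsl deaminate serine and threonine. Sds stood at 0.39, 0.37, 0.05 and 0.19 (mean 0.25 ± 0.19), above 0 on every array. Sdsl stood at 0.46, 0.35, -0.11 and -0.11 (mean 0.15 ± 0.36), so that the pools lay on opposite sides of 0. Got1, cytosolic aspartate aminotransferase, had a mean of 0.15 ± 0.19 and was below 0 on 1 array. Agxt, which transaminates glyoxylate to glycine, had a mean of 0.03 ± 0.09, with the sign following the dye.

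**Figure D2:**
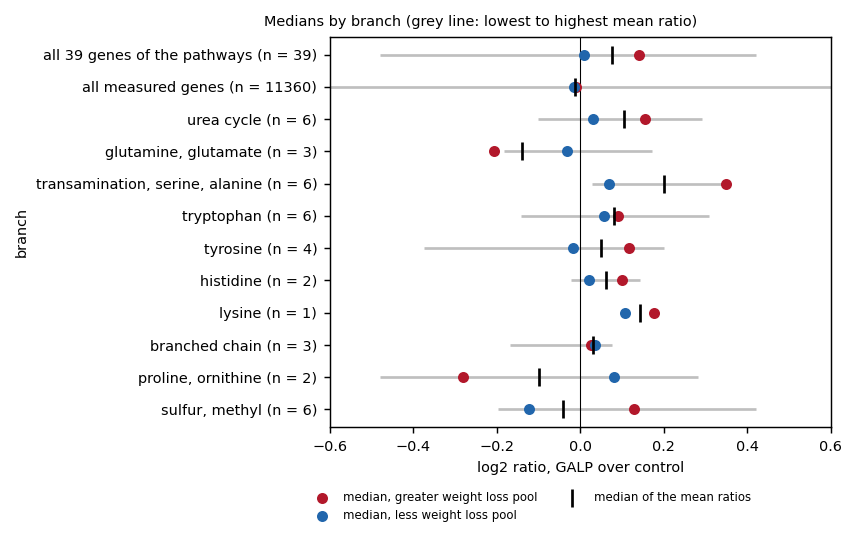
Median log2 ratio (x axis) of each branch (y axis, n genes) in the greater (red) and less (blue) weight loss pool and of the mean ratios (black), with a grey line from the lowest to the highest mean ratio, which runs past the axis for all measured genes. The branch of transamination, serine and alanine has a median of 0.35 in the greater and 0.07 in the less weight loss pool.

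In glutamine and glutamate metabolism the genes lay on both sides of 0. Gls2, the liver glutaminase of periportal cells, had a mean of 0.17 ± 0.29, with 0.45 and 0.29 in the greater and 0.06 and -0.12 in the less weight loss pool. Glud1, glutamate dehydrogenase, releases ammonia in the mitochondrion. It was below 0 on every array, at -0.31, -0.11, -0.25 and -0.06 (mean -0.18 ± 0.04, limma adjusted p = 0.404).

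Glul, the glutamine synthetase of pericentral hepatocytes, was read by the 3 probes shown above. Probe 1 stood at -0.22, -0.29, 0.05 and -0.10 (mean -0.14 ± 0.16). Probe 2 gave 0.06, -0.35, 0.03 and -0.11, and probe 3 gave -0.81, -0.30, -0.88 and 0.38. Probe 3 was thus the lowest with GALP in Cy5 and changed sign with the dye in the less weight loss pool, although all of its channels were well above background.

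Tryptophan leaves through the kynurenine pathway. The enzymes of its first steps had means above 0. Those of Kmo, Kynu and Haao further down were below 0, that of Kmo by less than the centring of the arrays moves it. Tdo2, tryptophan 2,3-dioxygenase, stood at 0.17, 0.26, 0.12 and 0.16 (mean 0.18 ± 0.05), and its second probe gave 0.17, 0.17, 0.20 and 0.20, so both probes lay above 0 on every array. Ido2, which catalyses the same reaction, had a mean of 0.19 ± 0.01 with 4 values between 0.14 and 0.24. Its second probe ranged from -0.62 to 0.73.

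Afmid, which hydrolyses formylkynurenine, stood at 0.44, 0.39, 0.18 and 0.21 (mean 0.31 ± 0.16, 1.24-fold, limma adjusted p = 0.568), the highest of the tryptophan genes. A dimmer probe of Afmid gave 0.58, -0.31, 0.60 and 0.49, well above background in 5 of 8 channels. Kmo, kynurenine 3-monooxygenase, had a mean of -0.02 ± 0.02, with the sign following the dye. Kynu, kynureninase, stood at -0.26, -0.04, -0.21 and -0.05 (mean -0.14 ± 0.02, limma adjusted p = 0.378), with the lower values in Cy5 in both pools. Its second probe was well above background in 0 of 8 channels. Haao, which makes the precursor of quinolinate, had a mean of -0.13 ± 0.05 and values from -0.34 to 0.0017.

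In tyrosine breakdown Tat stood apart. Tat, tyrosine aminotransferase, catalyses the first and limiting step and is a classical target of glucocorticoids. It stood at -0.14, -0.24, -0.43 and -0.69 (mean -0.38 ± 0.26, 0.771-fold, limma adjusted p = 0.655). Every value of the less weight loss pool was below those of the greater weight loss pool. The Feature Extraction p-value was 0.00128 on the last array and 0.0375 on the other array of that pool. The following enzymes, Hpd and Fah, were above 0 on every array, with means of 0.20 ± 0.10 and 0.12 ± 0.05. Hgd, homogentisate dioxygenase, acts between them and had a mean of -0.02 ± 0.14, which was 0.05 under normexp and loess.

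The other essential amino acids gave small values. Uroc1, urocanase of histidine breakdown, had a mean of 0.14 ± 0.0046 with 4 values between 0.10 and 0.18. Hal, histidine ammonia-lyase, had a mean of -0.02 ± 0.12. Aass, the first enzyme of lysine breakdown, had a mean of 0.14 ± 0.05, and its values of 0.33, 0.03, 0.32 and -0.11 differed by dye and not by pool.

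Branched-chain amino acids are oxidised by a dehydrogenase complex of which Bckdha and Bckdhb are the E1 subunits and Bckdk the inhibiting kinase. Bckdha had a mean of 0.03 ± 0.01 and Bckdhb of 0.08 ± 0.04, both negative with GALP in Cy5 and positive in Cy3. The second probe of Bckdhb had a mean of -0.03. That of Bckdha gave 0.26, 0.07, -0.05 and 0.24 (mean 0.13) and did not show the dye pattern. Bckdk stood at -0.20, -0.11, -0.41 and 0.05 (mean -0.17 ± 0.02, limma adjusted p = 0.374).

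Proline and ornithine breakdown held the lowest gene. Prodh, proline dehydrogenase, stood at 0.09, 0.29, 0.31 and 0.44 (mean 0.28 ± 0.13, 1.22-fold, limma adjusted p = 0.535), above 0 on every array. Oat, ornithine aminotransferase of pericentral cells, stood at -0.54, -0.97, -0.26 and -0.16 by probe 2 (mean -0.48 ± 0.38, 0.717-fold, limma adjusted p = 0.702), with the lower pair in the greater weight loss pool. This value rests on the processing, with a mean of -0.10 under normexp and loess, and on the choice of the probe. Probe 1 of Oat had the higher signal and gave -0.02, -0.04 and 0.06 on 3 arrays. It carried an outlier mark on the array of the less weight loss pool with GALP in Cy5, where it read 0.19, and so probe 2 stood for the gene.

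In sulfur amino acid and methyl metabolism the genes diverged along the methionine cycle. Mat1a, which makes S-adenosylmethionine, was above 0 on every array with a mean of 0.20 ± 0.03. Gnmt, the glycine methyltransferase that uses it up, had a mean of -0.06 ± 0.22. Ahcy splits the S-adenosylhomocysteine left by methylation, and it had the highest mean ratio of all 39 genes.

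Ahcy stood at 0.64, 0.20, 0.44 and 0.40 (mean 0.42 ± 0.0011, 1.34-fold, 95% interval 0.37 to 0.47, limma adjusted p = 0.374). The pool means differed by 0.0016, whereas the dye orientations of the same extracts differed by 0.43 in the greater weight loss pool. The interval from the pools is narrower than that difference between dye orientations. Probe 2 gave 0.44, 0.19, 0.38 and 0.08, above 0 on every array. By the positions above it lies on another chromosome and is no second reading of this locus. Under normexp and loess the mean of probe 1 was 0.38, with a limma adjusted p of 0.0443.

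Bhmt, which remethylates homocysteine with betaine, stood at -0.23, -0.17, -0.16 and -0.23 (mean -0.20 ± 0.0063, 95% interval -0.25 to -0.14, limma adjusted p = 0.374), the narrowest set below 0. Cbs and Cth lead homocysteine to cysteine. Cbs stood at 0.27, 0.06, -0.40 and -0.15 (mean -0.05 ± 0.31), positive in the greater and negative in the less weight loss pool. Cth had a mean of -0.03 ± 0.04.

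**Figure D3:**
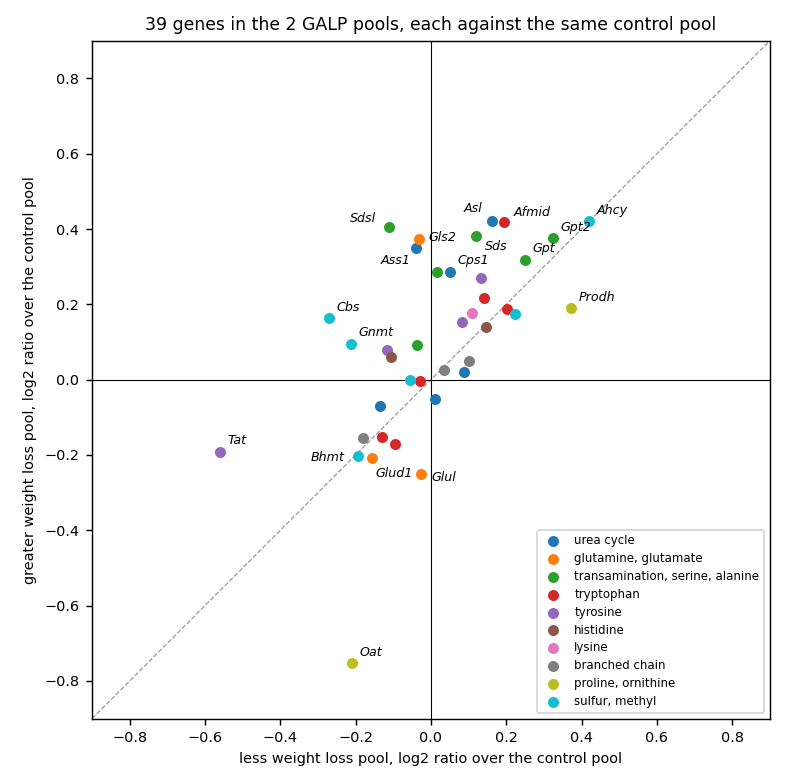
Log2 ratio of each of the 39 genes in the greater weight loss pool (y axis) and in the less weight loss pool (x axis), each over the same control pool, coloured by branch, with a dashed line at equal ratios. Sdsl, Gls2, Ass1 and Cbs lie above the line, with positive ratios in the greater and negative ratios in the less weight loss pool, and Oat lies farthest below it.

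The difference between the pools was set beside the half-difference of the dye orientations within a pool (the difference divided by 2). That half-difference holds the repeat error of the same extracts and any dye bias of the probe. A dye bias that is equal in both pools cancels in the pool difference, so the counts below are a description and no measure of technical noise. With 1 pool for each weight loss group the difference has no test. The median size of the pool difference was 0.0748, and the median half-differences of the dyes were 0.0936 in the greater and 0.0782 in the less weight loss pool. In 18 of the 39 genes (46.2%, beside 38.1% of all genes) the pool difference exceeded both half-differences, 15 of them higher and 3 lower in the greater weight loss pool. In 13 (33.3%, beside 17.5%) it exceeded both full differences. Of all 39, 25 were higher in the greater weight loss pool (64.1%, beside 52.6% of all genes).

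The largest differences were those of Oat by probe 2 (-0.54), Sdsl (0.52), Cbs (0.43) and Gls2 (0.40), followed by Ass1 (0.39) and Tat (0.37). Sds (0.26), Asl (0.26), Afmid (0.22), Glul (-0.22), Hgd (0.20), Hal (0.17) and Hpd (0.14) also exceeded both full differences between dyes. Sdsl, Gls2, Sds and Hal are on the list of periportal markers, and Oat and Glul, which differed the other way, on that of pericentral markers. Probe 1 of Oat, with a value on 3 arrays, differed by -0.09. Of the 6 measured periportal markers 5 were higher in the greater weight loss pool, as were 2 of the 10 measured pericentral markers. These counts include Sdsl, Gls2, Sds, Hal, Oat and Glul, just named for their differences, and so are no separate check of them. The periportal markers outside the pathways, Cyp2f2 and Hsd17b13, differed by -0.05 and 0.09. Of the pericentral ones outside them, Rhbg (-0.59) and Slc1a2 (-0.09) exceeded both half-differences of their dyes. Lgr5 (-0.11), Gulo (-0.06), Cyp2c29 (-0.05), Rgn (-0.04), Tbx3 (0.01) and Cyp1a2 (0.05) did not.

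**Figure D4:**
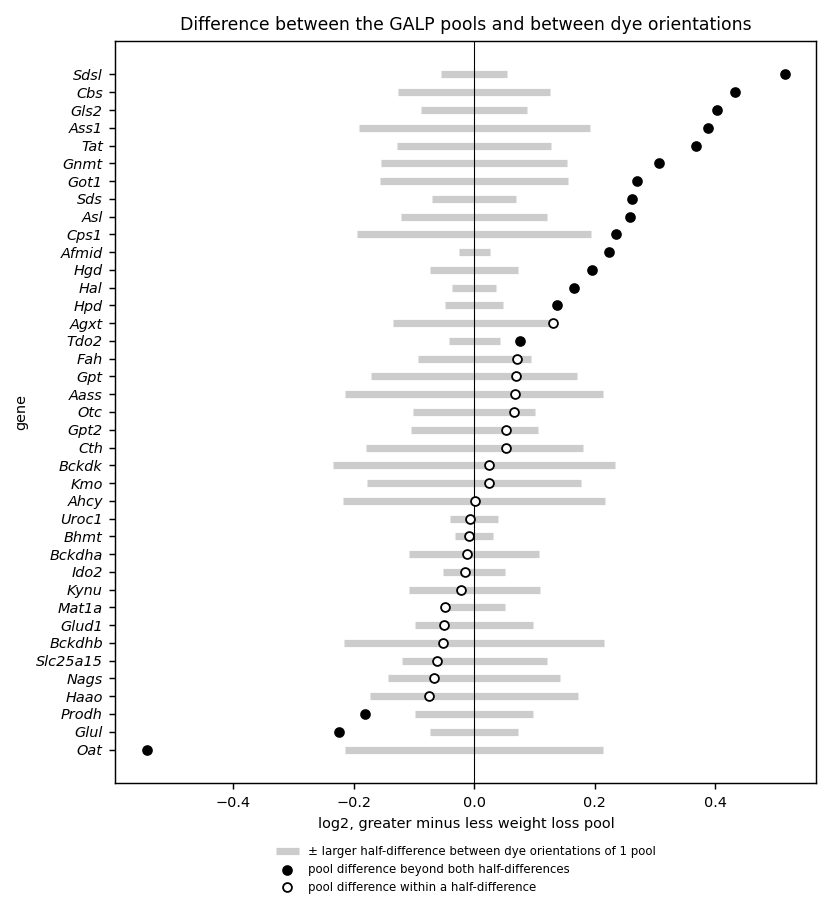
Log2 difference of the greater minus the less weight loss pool (x axis) for 39 genes (y axis). Grey bars span plus and minus the larger half-difference between dye orientations of a pool, filled points lie beyond both half-differences and open points within one. Of the filled points 15 lie above 0 and 3 below.

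Markers of liver zones and of other tissues were read beside these values. Of 8 listed periportal markers 6 were measured, with a median of 0.31 in the greater and -0.02 in the less weight loss pool, and Hal, Sds, Gls2 and Sdsl among them are genes of the pathways themselves. The remaining 2, Cyp2f2 and Hsd17b13, had mean ratios of -0.04 and 0.21. Of 12 pericentral markers 10 were measured, with medians of -0.21 and -0.05. Glul and Oat among them are also genes of the pathways, and Oat entered by its dim probe 2. Of the 10, Lgr5 stood at -0.69, -0.83, -0.51 and -0.80, with signals of only 79.5 to 169. Rgn stood at -0.50, -0.13, -0.33 and -0.22, whereas Cyp1a2 and Slc1a2 had means of 0.14 and 0.15. The summed signal of the 7 measured hepatocyte markers, Alb and Apoa1 among them, was 0.97 to 1.03 of the control on the arrays. This ratio compares GALP with control and does not by itself check the tissue.

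Some markers of pancreas, muscle and stomach differed more than the genes of these pathways. The 6 pancreatic enzyme genes ranged from -4.25 to -2.67 in the greater weight loss pool and from 0.59 to 1.09 in the less weight loss pool, and their summed signal was 0.09 to 1.79 of the control. Summed skeletal muscle markers were 0.18 to 1.22 of the control and were the lower in the less weight loss pool. Of the 5 measured stomach and gut genes, Gkn2 and Tff1 stood at -3.41 or lower on every array. Gkn3 (-3.13, -3.25, 0.66 and 0.74) and Tff2 (-3.51, -4.08, 0.68 and 0.68) were below 0 in the greater and above 0 in the less weight loss pool, like the pancreatic genes. Fabp2 had a mean of -0.24. Of the 9 measured Kupffer cell markers 6 were above 0 on all arrays, beside 12.8% of all genes. The summed signal of the 9 was 1.15 to 1.22 of the control. Marco (mean 0.87), Cd68 (0.55) and Adgre1 (0.43) were the highest. The means of Clec4f (-0.0013), Vsig4 (-0.07) and Timd4 (-0.16) were below 0. Summed signals were 0.88 to 1.06 of the control for endothelial, 0.92 to 1.19 for stellate cell and fibroblast and 0.87 to 1.38 for cholangiocyte markers. These sums rest mostly on their brightest probes, those of Clec4g, Dcn and Spp1. The endothelial means ran from -0.12 (Kdr) to 0.74 (Lyve1), the stellate cell and fibroblast means from 0.05 (Dcn) to 0.66 (Col1a1). Spp1 had a mean of 0.10, whereas the dim Krt19, Krt7 and Sox9 had -0.46, -0.10 and -0.14. Marco and Lyve1 met the rule of the methods as higher, as did 0.176% of all genes. For the 2 measured adipose markers the summed signal was 0.58 to 0.78 of the control. Cfd was below 0 on every array (mean -0.81), whereas Adipoq stood at 0.41, 0.35, -0.27 and -0.24. The sums were 0.91 to 0.94 for the 2 erythroid markers and 1.16 to 1.47 for the 2 measured genes of the lymphocyte list. Those 2 went apart, with a mean of 0.47 for Ptprc, which all leukocytes express, and of -0.86 for the B cell gene Ms4a1, while Cd3e, Cd4 and Cd8a were not well above background on every array. None of the 5 kidney markers was well above background on every array. The part of these tissues and cells in the ratios above was not tested.

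**Figure D5:**
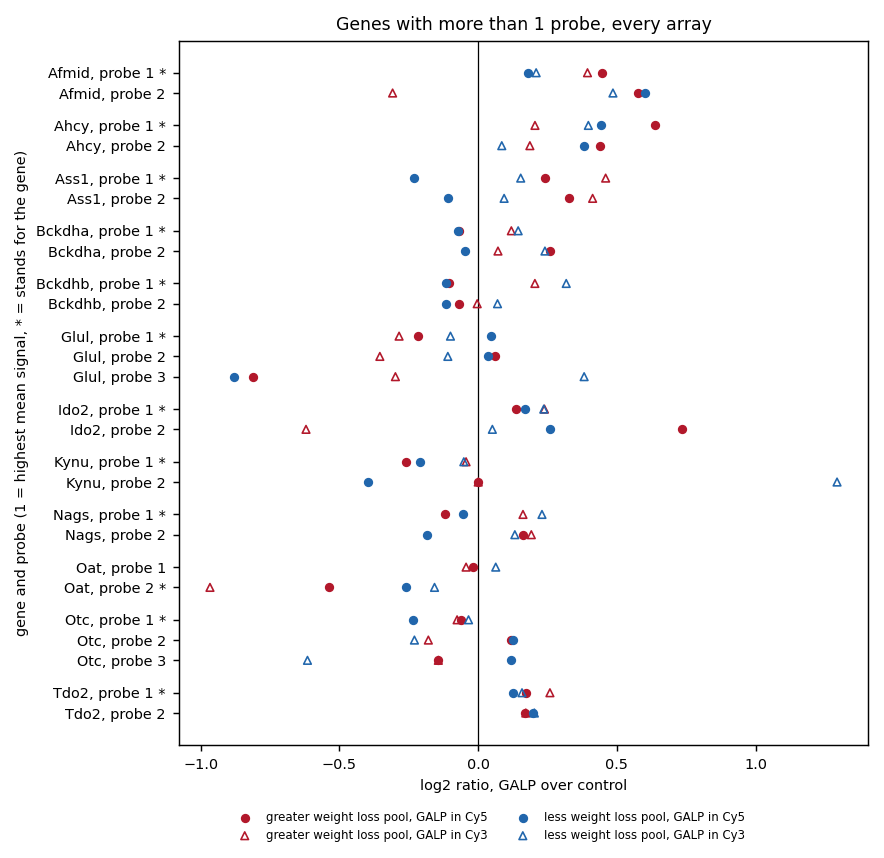
Log2 ratio of GALP over control (x axis) of every probe (y axis) of the 12 genes with more than 1 probe, on each array. Colours and marks are those of the plot by gene, probe 1 has the highest mean signal, and an asterisk marks the probe that stands for the gene. Tdo2 and Ass1 have probes that lie close together, whereas probe 3 of Glul and probe 2 of Ido2 spread widely with the dye and the 2 probes of Oat lie apart.

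The rest of the amino acid network was read from 137 further genes, listed by pathway, of which 113 were measured. None of them had a probe called by the rule of the methods. Their median was -0.0023, beside -0.01 for all genes. On all 4 arrays 14 of the 113 were above 0 and 13 below 0, beside 12.8% and 14.6% of all genes. By these measures they lay close to all genes. The branched-chain enzymes outside the complex above had a median of 0.01 (n = 17), the glycine and serine enzymes of -0.0040 (n = 16), and the further sulfur and methyl enzymes of -0.01 (n = 13). Gldc, the decarboxylase of the glycine cleavage system, was the lowest at -0.42, -0.35, -0.26 and -0.63 (mean -0.41 ± 0.04, limma adjusted p = 0.374). Gatm, which starts creatine synthesis from arginine and glycine, stood at -0.52, -0.42, -0.10 and -0.26.

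The amino acid transporters had the highest median of the enzyme and transporter lists (0.15, n = 15). On all arrays 5 of the 15 were above 0 and 0 below 0, beside 12.8% and 14.6% of all genes. Slc43a1, a carrier of branched-chain and aromatic amino acids, stood at 1.28, 1.04, 0.50 and 0.65 (mean 0.87 ± 0.42, limma adjusted p = 0.546). Its greater weight loss pool lay above the other on both arrays. Slc16a10, which exports aromatic amino acids, had a mean of 0.42 ± 0.19, and Slc7a2, the cationic carrier that brings in arginine and ornithine, of 0.37 ± 0.13.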

How the data were processed

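Liver RNA was measured on 4 two-colour Agilent arrays of 1 slide. The processed intensity of each channel was deposited after background subtraction and dye normalization by Feature Extraction, version 12.0.3.1 in the headers and 11.0.1.1 in the submitters' processing notes. The deposited log10 ratio is Cy5 over Cy3, and the deposited p-value comes from the error model of 1 array. In the authors' series table these log10 ratios have the GALP channel as numerator.

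Here log2 was used, with the GALP channel as numerator. Outlier-marked spots (232 to 319 of 43379 per array) were left out. No spot was saturated. Spots of a probe were averaged, and so were the 2 arrays of a pool, which carry the same extracts. A weight loss group is also attached to the control channel in the labels, but the methods describe 1 control pool, and that reading was used. The probe with the highest mean signal among those with a value on every array, at least 1 channel well above background on each, stood for a gene. RefSeq names matched 38 of the 40 genes by accession. The methods' rule was applied in its strict reading, and limma 3.58.1 in R 4.3.3 used lmFit and eBayes with 1 residual degree of freedom. Precision is limited by how few arrays there are.

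The genes are listed by name, but that list, the further lists and the tests were drawn up with earlier results of these data known. Values on every array are given for the 6 highest and 6 lowest genes of 1 direction, the 3 with the largest pool difference and the urea cycle, and for further genes chosen after their values were seen; of the further lists, for the 5 highest and 5 lowest. Alternatives were normexp (offset 50) with loess, median centring, the series table, outlier marks ignored, other filters on dim probes, single dye orientations, single pools, other readings of the rule and the mean over probes.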

Additional observations from a re-analysis of the deposited data

Results flagged for a closer look

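In 4 genes both arrays of 1 GALP pool lay above 0 and both arrays of the other below 0. The share of all measured genes with this pattern was not counted, so these 4 cannot be called unusual. The greater minus the less weight loss pool was 0.52 for Sdsl, 0.43 for Cbs, 0.20 for Hgd and 0.17 for Hal on the log2 scale. Each pool is 1 sample on 2 arrays and both ratios share the control pool, and the difference between the pools was not tested. No group held enough samples for a check of single samples against the rest of their group.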

How the results depend on the processing

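The rule of the methods called 0 of the genes under all 13 alternatives run. limma passed 0 of them under 8 alternatives and 1, Ahcy, with normexp and loess (smallest adjusted p among the genes 0.0443), where 21 held an unadjusted p under 0.05 instead of 10. That number was 16 among probes well above background in both channels and 2 with the series table, which leaves these genes' ratios as they were. The median of the mean ratios was above 0 under all alternatives run, but only 0.0098 without the greater weight loss pool. It was 0.14 without the less weight loss pool. With both pools it ran from 0.05 with GALP in Cy5 alone to 0.11 with normexp and loess. The median difference between the pools was 0.07 and 0.06 with normexp and loess. With outlier marks ignored, the probe of Oat changed and its mean went from -0.48 to 0.05, and Arg1 had a mean of 0.10. GALP in Cy5 alone gave the opposite sign for 7 of the 39 genes and GALP in Cy3 alone for 3 (Nags, Agxt, Kmo, Hgd, Bckdha, Bckdhb and Gnmt, and Slc25a15, Aass and Cth). No paired analysis was possible because the replicate number in each group is the dye orientation of the same extracts. The 39 probes were well above background in all 8 channels. Probe 2 of Oat was dim all the same, with signals of 74.8 to 148. Its mean moved from -0.48 to -0.10 with normexp and loess.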

Other observations

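Genes that the amino acid response is known to control gave values that did not run together. Asns, asparagine synthetase, stood at 2.00, 2.00, 0.31 and 0.11 (pool ratios 2.00 and 0.21, limma adjusted p = 0.702), with its high values in the greater weight loss pool. Atf3, a stress-induced transcription factor, stood at 1.29, 0.73, 0.39 and 0.15, in the same order of the pools. Atf4, the transcription factor of that response, was below 0 on every array, at -0.32, -0.13, -0.46 and -0.30 (mean -0.30 ± 0.11), and so was Ddit3, at -0.19, -0.13, -0.41 and -0.72. The 13 measured genes of the list of Atf4 targets had a median of 0.18. On all arrays 4 of the 13 were above 0 and 1 below 0, beside 12.8% and 14.6% of all genes. Among the regulators and gluconeogenic genes listed, G6pc, the catalytic subunit of glucose-6-phosphatase, was the lowest, at -0.55, -0.33, -0.39 and -0.38 (mean -0.41 ± 0.03; limma adjusted p = 0.374). The pancreatic enzyme genes differed between the same pools by far more, and their part in these ratios was not tested.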
